A study of Mus musculus with 288 samples.

Results

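H3K9 methylation is placed on histone H3 by a small set of methyltransferases, and the reads of 10 genes of this system were examined in single mouse embryonic stem cells leaving the 2i ground state. The genes were the corepressor Trim28, the H3K9 methyltransferases Setdb1, Ehmt1, Ehmt2, Suv39h1 and Suv39h2, the H3K9 methylation readers Cbx1 and Cbx3, and the imprint-protecting zinc finger genes Zfp57 and Zfp445. They were taken by name, 10 of the 54232 genes of the deposited count table, of which 29287 had at least 1 read. All 10 were found, and all 10 were read in 50% or more of the cells of one label or both in each comparison, so none was lost to a filter on low values.

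The cells were E14 mouse embryonic stem cells, of strain 129/Ola in the labels, from which RNA and DNA of the same cell were sequenced by scNMT-seq. Only the RNA part was used here. D0 cells (0 h) were kept in N2B27 medium with 2i, the GSK3 inhibitor CHIR99021 and the MEK inhibitor PD0325901, together with leukaemia inhibitory factor (LIF), while D1 (24 h) and D2 (48 h) cells had been moved to medium with fetal bovine serum and LIF. The labels give no genetic change and name E14 for every well, and all groups were kept with LIF. Cells were flow sorted singly into 96 wells for each label, and their chromatin was treated with the GpC methyltransferase M.CviPI before the RNA was separated.

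Of these wells 90 of D0, 50 of D1 and 93 of D2 passed the filter (more than 200000 reads on genes, more than 2000 genes with a read, and a mitochondrial fraction under 0.15). Median reads per cell were 1610758.5 in D0, 7956161.5 in D1 and 2162090 in D2, and the shallowest passing cell had 202157. D2 cells had a read on a median of 4744 genes against 9002 in D0 and 10676 in D1, and after random thinning of every cell to 200000 reads these were 3945, 7793.5 and 8035. The well names give a single plate of 96 wells for each time point. No label names a culture, and 1 culture per time point was assumed. Effects of the time, the culture, the plate and the library cannot be told apart, cells do not replicate a condition, and none of the differences between time points was tested. The D1 cells also stood apart in genes outside the system: mean Hprt was 207.2 CPM (counts scaled to 1000000 reads per cell) in D1 against 3.083 in D0 and 2.683 in D2, and the sum of the Y-linked genes Uty, Kdm5d, Eif2s3y and Ddx3y averaged 269.3, 22.86 and 5.21 CPM. E14 sublines are widely used as HPRT-deficient cells. Whether the D1 cells were of the same line as the others cannot be told from the labels, the part of this difference in the results with D1 was not tested, and D2 over D0 is the comparison without those cells.

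The labelled cell type was checked against marker genes. All 10 pluripotency markers, among them Pou5f1, Sox2 and Nanog, were read in 50% or more of the cells of every label, and their summed level had medians of 5205.1, 6890.7 and 9831.8 CPM in D0, D1 and D2, with single cells between 1014.8 and 52609.2 CPM. The summed levels of 6 primitive endoderm markers and of 6 fibroblast markers had a median of 0 in each label, with highest values of 180.9 and 112 CPM in any cell. The 6 trophectoderm markers had medians of 28.02, 6.576 and 0 CPM in D0, D1 and D2 with a highest cell of 3540.4 CPM in D2. Of them only Tfap2c was read in 50% or more of D0 cells (84.4%, mean 29.99 CPM), and Krt18 alone reached 3216.5 CPM in D2. Of 7 markers of 2-cell-like cells, a state in which H3K9-silenced retroelements are active, none had a read in D0 or D2 and 1 had in D1, at no more than 0.06276 CPM. Apart from Tfap2c in D0 and Krt18 in D1 (54% of cells without thinning), markers of the other cell types were present in a minority of cells. In some cells the values were high, and their part in the results was not tested.

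In this system KRAB zinc finger proteins bind DNA and recruit TRIM28 (KAP1), which brings in SETDB1 to trimethylate H3K9, most of all at endogenous retroviruses. EHMT1 (also GLP) and EHMT2 form a dimer that makes mono- and dimethylated H3K9 in euchromatin, SUV39H1 and SUV39H2 trimethylate H3K9 in pericentromeric repeats, and the heterochromatin protein 1 family, with HP1β from Cbx1 and HP1γ from Cbx3, binds the mark. ZFP57 and ZFP445 recognize methylated imprinting control regions, where TRIM28 and its partners keep DNA methylation through the global loss that 2i culture brings about.

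Because the study follows the gain of DNA methylation at CpG sites, the CpG content of the promoters of these genes is given first. RefSeq promoter entries (GRCm38.p6) were found for all 10 genes, with 15 start sites, and the 250 bases before each start were read. The 15 windows held between 3 and 36 CpGs each, against a median of 6 in the 32851 promoters of the table. The windows of Cbx1 and Cbx3, whose levels moved apart, and that of the first Zfp57 start are shown 5′ to 3′ on the strand of the gene, with every CpG in capitals. They are at chr11:96788885-96789134 (Cbx1, plus strand), chr6:51470366-51470615 (Cbx3, plus strand) and chr17:37000913-37001162 (Zfp57, plus strand).
Cbx1: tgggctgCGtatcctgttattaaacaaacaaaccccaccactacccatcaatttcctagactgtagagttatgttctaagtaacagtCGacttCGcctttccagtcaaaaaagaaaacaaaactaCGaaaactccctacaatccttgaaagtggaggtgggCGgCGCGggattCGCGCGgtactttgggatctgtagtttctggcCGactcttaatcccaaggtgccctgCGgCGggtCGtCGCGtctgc
Cbx3: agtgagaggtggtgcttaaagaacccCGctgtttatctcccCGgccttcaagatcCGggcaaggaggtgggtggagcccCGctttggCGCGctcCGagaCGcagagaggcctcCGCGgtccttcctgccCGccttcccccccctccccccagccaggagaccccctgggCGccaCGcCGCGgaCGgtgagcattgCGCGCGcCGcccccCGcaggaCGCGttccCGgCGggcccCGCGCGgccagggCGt
Zfp57: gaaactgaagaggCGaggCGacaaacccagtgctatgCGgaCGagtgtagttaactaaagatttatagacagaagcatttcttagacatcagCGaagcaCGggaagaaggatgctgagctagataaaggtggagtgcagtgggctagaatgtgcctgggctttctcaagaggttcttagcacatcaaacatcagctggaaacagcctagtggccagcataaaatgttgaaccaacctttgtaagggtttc

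The Cbx1 window held 16 CpGs at 49.6% GC, more than 74.6% of all promoters. The Cbx3 window shown held 29 at 73.2% GC, more than 93.2% of all promoters, and that of its second start 31 at 75.6% GC. The first Zfp57 window held 6, more than 49.6% of all promoters, and its other starts held 7 and 3. Zfp445 held 5, more than 44.4% of all promoters, and the Zfp57 start with 3 was above 29% of them, whereas the windows of the other 8 genes held at least 11. These counts describe the sequence, and methylation at these windows was not analysed here.

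Trim28 encodes the scaffold on which the other silencing proteins assemble. It lies on chromosome 7 (12999114 to 13031035, plus strand), by the GENCODE annotation of GRCm38 that gives all gene positions below. Trim28 ranged from 0 through a median of 390.8 to 1631.2 CPM over the D0 cells, from 5.713 through 282.5 to 2085.7 in D1, and from 0 through 165.4 to 1250.5 in D2. The mean was 433.1 ± 259.1 CPM in D0 (SD between cells, as for all values below, n = 90 cells), 404.3 ± 445.9 in D1 (n = 50) and 273 ± 312.2 in D2 (n = 93). The cells of all labels overlapped over most of their range, although 13 D2 cells lay below the lowest D1 cell. The log2 ratio of the means was -0.67 for D2 over D0, a 1.59-fold lower level, and -0.10 for D1 over D0, a value that turned positive with TMM factors (0.34). At 200000 reads per cell Trim28 had a read in 98.9% of D0 cells (exact Clopper-Pearson 95% interval 93.96% to 99.97%), 100% of D1 cells (from 92.9%) and 86.02% of D2 cells (77.3% to 92.3%), and without thinning in 98.9%, 100% and 88.2%. These intervals cover only the counting error over the cells of a plate. The reads carry no molecular identifiers and are not independent molecules.

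Setdb1 (chromosome 3, 95323525 to 95357202, minus strand) encodes the methyltransferase that TRIM28 recruits. It ranged from 0 through a median of 171.1 to 597.8 CPM in D0, from 0 through 91.02 to 502.3 in D1, and from 0 through 5.098 to 2436.7 in D2, so that 37 of 93 D2 cells had no read while 12 lay above the highest D0 cell. The mean of 217 ± 479 CPM in D2 therefore came close to the 201 ± 114.1 of D0, with a log2 ratio of 0.11 that became -0.06 without the D2 cell of most weight. In D1 the mean was 103.9 ± 89.53 CPM, a log2 ratio of -0.95 over D0. At equal depth 97.8% of D0 cells (92.2% to 99.7%), 96% of D1 cells (86.3% to 99.5%) and 51.6% of D2 cells (41.01% to 62.1%) had a Setdb1 read, and without thinning 98.9%, 98% and 60.2%. Among cells with a read the mean was 203.2 CPM in D0 and 360.5 in D2, but the median among them was 171.5 in D0 and 94.37 in D2. Fewer D2 cells thus carried reads of Setdb1, and a few very high cells set their mean. The 10 cells with most Setdb1 held 65.5% of its summed CPM in D2 against 24.4% in D0. D2 over D1, at 2.09-fold, was the only value of these genes at least 2-fold higher in that comparison, but within plate columns 1 to 6 the log2 ratio was 0.0018 and within columns 7 to 12 it was 1.80, with D2 means of 117.8 ± 287.1 CPM (n = 47) and 318.5 ± 603.3 (n = 46).

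Ehmt1 and Ehmt2 encode the partners of this dimer and lie on chromosome 2 (24789928 to 24919614, minus strand) and chromosome 17 (34898469 to 34914052, plus strand). Ehmt1 ranged from 0 through a median of 30.85 to 266.6 CPM in D0, from 0 through 61.89 to 201.5 in D1, and from 0 through 0.916 to 852.1 in D2. Its means of 51.59 ± 56.12, 68.47 ± 45.44 and 61.08 ± 130.9 CPM all lay within 2-fold of each other. Ehmt2 ranged from 0 through 20.22 to 114.3 CPM in D0, from 0 through 42.03 to 153.1 in D1, and from 0 through 0 to 183.4 in D2. Its means were 28.06 ± 29.7, 50.96 ± 42.19 and 21.39 ± 43.45 CPM, a log2 ratio of 0.86 for D1 over D0 and -1.25 for D2 over D1. The D1 over D0 value passed 2-fold with summed reads (1.21), medians (1.05), TMM (1.42) and median-of-ratios factors (1.31), and was 2.84 with no filter on cells. The ratio of D2 over D0 was -0.39 and turned to 0.31 with TMM factors.

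Both genes were read in more D1 cells than D2 cells. At equal depth Ehmt1 had a read in 85.6% of D0 (76.6% to 92.1%), 94% of D1 (83.5% to 98.8%) and 46.2% of D2 cells (35.8% to 56.9%), and unthinned in 91.1%, 98% and 52.7%. Ehmt2 had a read in 70% (59.4% to 79.2%), 90% (78.2% to 96.7%) and 33.3% (23.9% to 43.9%), and unthinned in 83.3%, 98% and 43.01%. Reads of both partners were present in the same cell in 62.2% of D0, 86% of D1 and 16.1% of D2 cells. Per kilobase of exon, their mean levels were close in D0 and D1 and farther apart in D2, Ehmt1 over Ehmt2 being 1.27 in D0, 0.925 in D1 and 1.97 in D2 on the CPM per kilobase scale.

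Suv39h1 and Suv39h2 encode the methyltransferases of pericentromeric heterochromatin and lie on chromosome X (8061171 to 8074760, minus strand) and chromosome 2 (3455815 to 3475031, minus strand). Suv39h1 ranged from 0 through a median of 2.721 to 110.8 CPM in D0, from 0 through 0.678 to 71.06 in D1, and from 0 through 0 to 125.6 in D2. Reads were seen in 51.1% of D0 cells (40.4% to 61.8%), 44% of D1 (29.99% to 58.8%) and 7.53% of D2 (3.08% to 14.9%) at equal depth, and in 65.6%, 56% and 11.8% without thinning. The mean of 14.1 ± 24.83 CPM in D0 stood against 11.74 ± 19.24 in D1 and 3.078 ± 16.96 in D2. D2 over D0 was 4.58-fold lower (log2 -2.20), and without the single D2 cell of most weight the log2 ratio was -3.01. D2 over D1 was 3.82-fold lower (log2 -1.93), and -2.75 without that cell. With log-normalized values neither ratio passed 2-fold (-0.13 for D2 over D0 and -0.11 for D2 over D1). The 10 highest D2 cells held 99.7% of the Suv39h1 level of that label. For D1 over D0 the log2 ratio was -0.26, and 0.11 with TMM factors.

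Suv39h2 ranged from 0 through a median of 23.49 to 232.3 CPM in D0, from 0 through 13.44 to 70.24 in D1, and from 0 through 0 to 371.5 in D2. Its means were 40.88 ± 46.36, 18.45 ± 17.92 and 31.56 ± 86.22 CPM, so that D1 was 2.22-fold lower than D0 (log2 -1.15), though not past 2-fold with summed reads (-0.91), medians (-0.81) or TMM factors (-0.70), while D2 over D0 had a log2 ratio of -0.37. As with Setdb1, a small number of D2 cells carried the level, 5 of them above the highest D0 cell. The share with a read at equal depth was 71.1% in D0 (60.6% to 80.2%), 74% in D1 (59.7% to 85.4%) and 21.5% in D2 (13.7% to 31.2%), and unthinned 75.6%, 86% and 26.9%. Among cells with a read the mean was 54.1 CPM in D0 and 117.4 in D2, and the median 43.99 and 51.39. On the CPM per kilobase scale Suv39h2 was above Suv39h1 by 3.331 times in D0, 1.81 in D1 and 11.8 in D2. Only 2 of 93 D2 cells had reads of both at equal depth, against 33 of 90 in D0. Exons of Suv39h2 share 357 bp with Dclre1c on the other strand and those of Suv39h1 share 551 bp with Gm14820, and without stranded counting, which is not stated, these reads cannot be told apart. The same holds for 75 bp that Setdb1 shares with Cers2 and 249 bp with Gm37500, and Ehmt1 shares 21 bp with Gm37139 on its own strand.

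**Figure D1:**
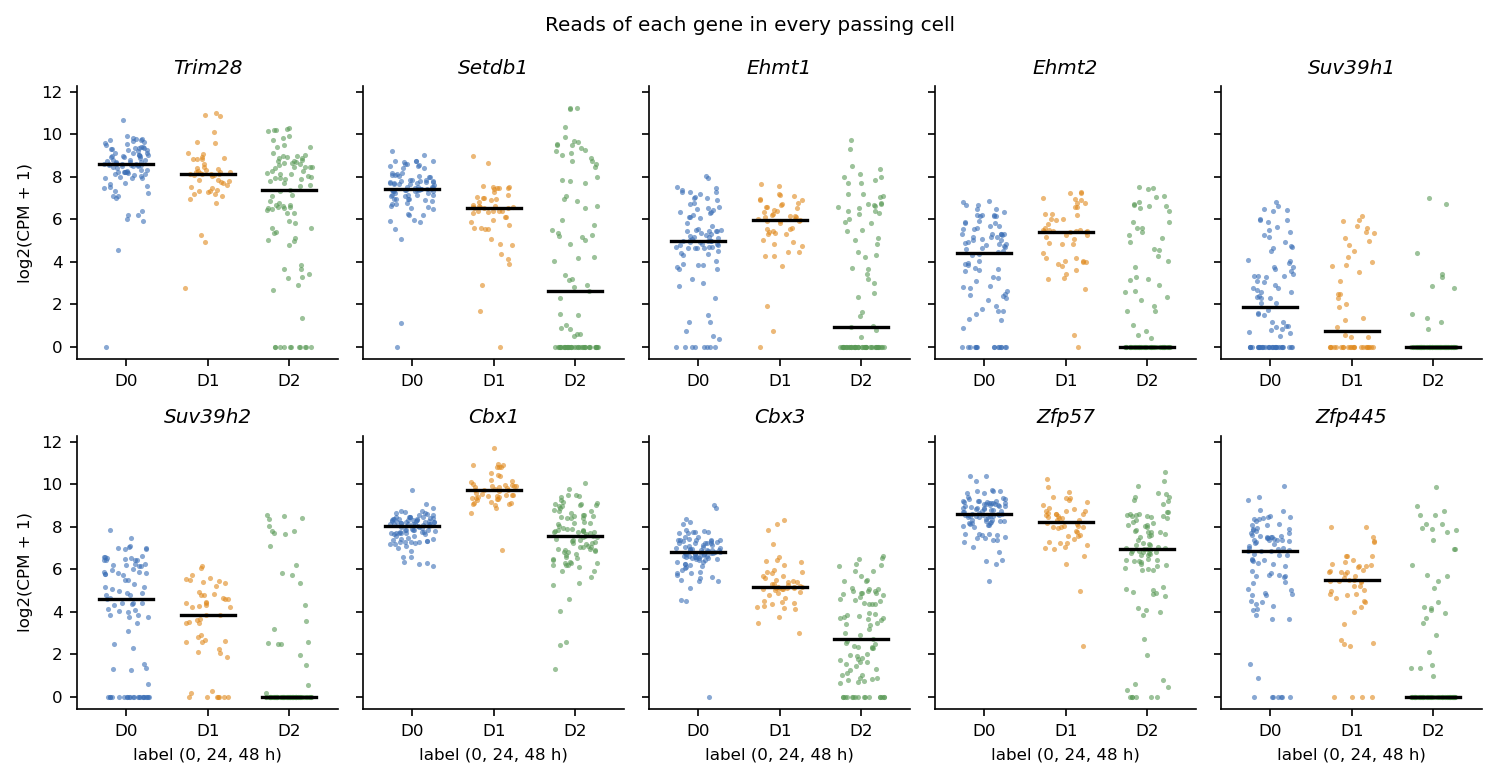
Level of each of the 10 genes in every passing cell, as log2(CPM + 1) on the y axis, for D0 (90 cells), D1 (50) and D2 (93) on the x axis. Points are cells, spread sideways at random, and black lines are medians. Cbx1 sits highest in D1, Cbx3 is lower in D1 and D2 than in D0, and the D2 medians of Ehmt2, Suv39h1, Suv39h2 and Zfp445 lie at 0.

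The HP1 genes held the highest ratio of the 10 genes in D1 over D0 (Cbx1) and the lowest in D2 over D0 (Cbx3). Cbx1 (chromosome 11, 96789127 to 96808640, plus strand) ranged from 69.88 through a median of 261.2 to 836.1 CPM in D0, from 120 through 837 to 3310.2 in D1, and from 1.447 through 188.1 to 1050.0 in D2. Of the 50 D1 cells 49 lay above the D0 median and 25 above the highest D0 cell, and 29 D2 cells lay below the lowest D1 cell. The means were 261.6 ± 113.3 CPM in D0, 978 ± 546.7 in D1 and 254.3 ± 208.2 in D2. Cbx1 was thus 3.74-fold higher in D1 than in D0 (log2 1.90, between 1.49 and 1.96 over the alternatives tried), above 92.9% of all genes compared, and 3.85-fold lower in D2 than in D1. The means of D2 and D0 differed little, with a log2 ratio of -0.04 that was 0.18 with TMM factors and -0.47 with medians. Of the D2 cells, 11 lay below the lowest D0 cell and 2 above the highest. At equal depth 100% of D0 (from 96%), 100% of D1 (from 92.9%) and 98.9% of D2 cells (94.2% to 99.97%) had a Cbx1 read, and all cells had one without thinning.

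Cbx3 (chromosome 6, 51470360 to 51483704, plus strand) was lower after release. It ranged from 0 through a median of 110.5 to 517.9 CPM in D0, from 7.081 through 34.6 to 322.4 in D1, and from 0 through 5.506 to 98.4 in D2. None of the 93 D2 cells and 4 of the 50 D1 cells reached above the D0 median, and 48 D2 cells lay below the lowest D1 cell. The means were 127.6 ± 81.24, 54.86 ± 62.24 and 16.5 ± 22.67 CPM, so that Cbx3 was 2.33-fold lower in D1 (log2 -1.22) and 7.74-fold lower in D2 (log2 -2.95) than in D0. Of all genes compared 5.99% had a lower D2 over D0 ratio. Cbx3 was lower in D1 and in D2 under every alternative tried, though not past 2-fold in D1 within plate columns 1 to 6 (-0.98), nor in either label with log-normalized values (-0.56 in D1 and -0.92 in D2). Its share of cells with a read at equal depth was 98.9% in D0 (93.96% to 99.97%), 100% in D1 (from 92.9%) and 62.4% in D2 (51.7% to 72.2%), and 98.9%, 100% and 82.8% unthinned. The 8 named Cbx3 pseudogenes in the table held 321 reads in all against 57893 of Cbx3, or 0.551%.

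Set side by side per kilobase of exon, the mean level of Cbx1 was 1.66 times that of Cbx3 in D0, 14.4 times in D1 and 12.4 times in D2. Within single cells Cbx1 was above Cbx3 on this scale in 75 of 90 D0 cells, 50 of 50 D1 cells and 90 of 93 D2 cells. It was more than 5 times higher in 5 D0 cells (5.56%), 47 D1 cells (94%) and 74 D2 cells (79.6%). The shift in D1 was one of both genes and that in D2 mainly one of Cbx3. Cbx5, the third HP1 gene and not one of the 10, had log2 ratios of -0.20 for D1 and -1.31 for D2 over D0.

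**Figure D2:**
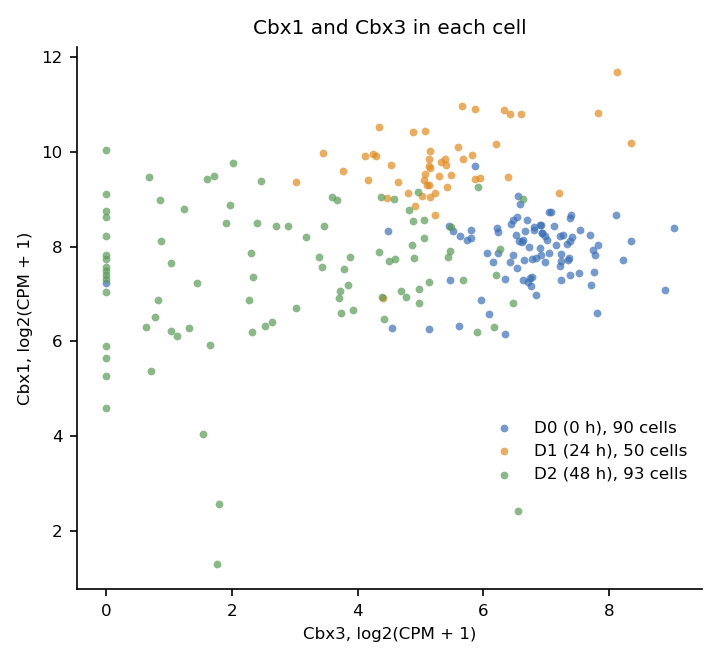
Cbx1 against Cbx3 in each cell, both as log2(CPM + 1), with 90 D0, 50 D1 and 93 D2 cells in separate colours. Of the D1 cells 49 lie above the D0 median of Cbx1, D2 cells spread to the left in Cbx3, and none of the D2 cells exceeds the D0 median of Cbx3 at 110.5 CPM.

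Zfp57 (chromosome 17, 37001163 to 37010635, plus strand) encodes the zinc finger protein that protects most known imprints in embryonic stem cells, and its level per kilobase was close to that of its partner Trim28 in D0 (Trim28 over Zfp57 1.04 on the CPM per kilobase scale), D1 (1.23) and D2 (1.33). Zfp57 ranged from 41.86 through a median of 390.3 to 1343.8 CPM in D0, from 4.18 through 302.4 to 1200.0 in D1, and from 0 through 120.8 to 1539.7 in D2. Although the ranges overlapped, 23 of 93 D2 cells lay below the lowest D0 cell and 12 above the D0 median. The means were 432.7 ± 241.6, 343.9 ± 231.1 and 213.9 ± 261.6 CPM, a log2 ratio of -0.33 for D1 and -1.02 for D2 over D0. The D2 value passed 2-fold narrowly, as it did not with TMM factors (-0.70) or without 1 cell (-0.98). A read was present at equal depth in 100% of D0 (from 96%), 98% of D1 (89.4% to 99.95%) and 90.3% of D2 cells (82.4% to 95.5%), and unthinned in 100%, 100% and 93.6%.

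Zfp445 (chromosome 9, 122844529 to 122866006, minus strand), the second imprint-protecting zinc finger gene, was lower in both labels after release. It ranged from 0 through a median of 114.8 to 949.9 CPM in D0, from 0 through 43.38 to 255.5 in D1, and from 0 through 0 to 930.3 in D2. The means were 148.9 ± 157.6, 57.14 ± 57.12 and 52.41 ± 138.6 CPM, 2.61-fold lower in D1 and 2.84-fold lower in D2 than in D0. The share of cells with a read differed between the labels with these like means. In D1, 88% of cells (75.7% to 95.5%) had a read at equal depth, near the 91.1% of D0 (83.2% to 96.1%), and the mean among cells with a read was 62.11 CPM against 161.4. In D2, 31.2% of cells (21.98% to 41.6%) had a read, and the mean among them was 152.3 CPM. The median among cells with a read was 125.8 CPM in D0, 45.49 in D1 and 51.29 in D2, so that the typical D2 cell with a read was near that of D1, and the 10 highest D2 cells held 79.5% of the level of that label. Without thinning the shares were 92.2%, 92% and 34.4%. Per kilobase, Zfp57 was 5.49 times Zfp445 in D0, 11.4 times in D1 and 7.71 times in D2. Reads of Zfp57 without Zfp445 were present in 8 D0, 6 D1 and 56 D2 cells at equal depth.

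**Figure D3:**
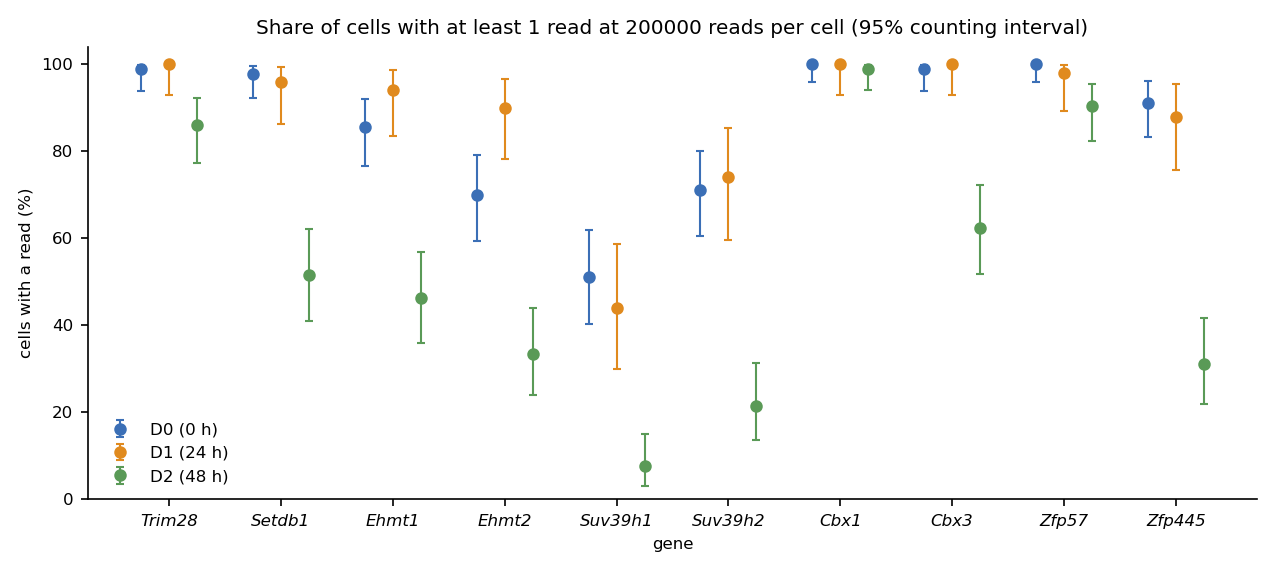
Share of cells with at least 1 read of each gene (y axis, percent) after each cell was thinned to 200000 reads, for D0, D1 and D2. Bars are exact 95% Clopper-Pearson intervals over cells. The D2 point lies below those of D0 and D1 for every gene, least for Zfp57 and Cbx1, and Cbx1 stays at 98.9% or more in each label.

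The order of the levels was read on the CPM per kilobase scale. In D0 Trim28 (133.5), Zfp57 (127.9) and Cbx1 (107.7) came first, followed by Cbx3 (65.07), Setdb1 (43.12) and Zfp445 (23.29), while Suv39h2 (9.447), Ehmt1 (8.636), Ehmt2 (6.82) and Suv39h1 (2.836) came last. In D1 Cbx1 led at 402.5 before Trim28 (124.6) and Zfp57 (101.7), and in D2 Cbx1 (104.6), Trim28 (84.13) and Zfp57 (63.25) led again, ahead of Setdb1 (46.58) and Ehmt1 (10.22). Cbx3 went from the fourth place in D0 and in D1 (27.97) to the sixth in D2 (8.412), next to Zfp445 (8.2). Suv39h1 was last in every label. Neighbours in these orders differed by less than the larger of their SDs between cells, except for Cbx1 above Trim28 and Zfp57 above Cbx3 in D1.

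Counted together, the 10 genes are set beside the same count over all genes that 50% or more of the cells of one label or the other had read. In D1 over D0, 1 of 10 (Cbx1) was at least 2-fold higher where 17.4% of all 10494 genes were, and 3 of 10 (Suv39h2, Cbx3 and Zfp445) were at least 2-fold lower where 26.7% were. In D2 over D0, 0 of 10 were higher where 10.9% of all 8822 genes were, and 4 of 10 (Suv39h1, Cbx3, Zfp57 and Zfp445) were lower where 29.3% were. In D2 over D1, 1 of 10 (Setdb1) was higher where 16.4% of all 9855 genes were, and 4 of 10 (Ehmt2, Suv39h1, Cbx1 and Cbx3) were lower where 23.8% were. These counts lie within a few genes of the shares over all genes and are read as no result about the 10 as a group. Their median log2 ratio was -0.30 for D1 over D0, -0.53 for D2 over D0 and -0.63 for D2 over D1, beside -0.22, -0.25 and -0.08 for all genes. With log-normalized values 0 of the 10 were at least 2-fold lower in D1 or D2 over D0. The comparisons share the D0 or the D1 cells. With TMM factors on summed reads the medians of all genes were 0.08 for D1 and 0.03 for D2 over D0. The share of all genes at least 2-fold higher and lower was then 22.2% and 20.3% in D1 over D0, and 21.5% and 25.5% in D2 over D0.

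**Figure D4:**
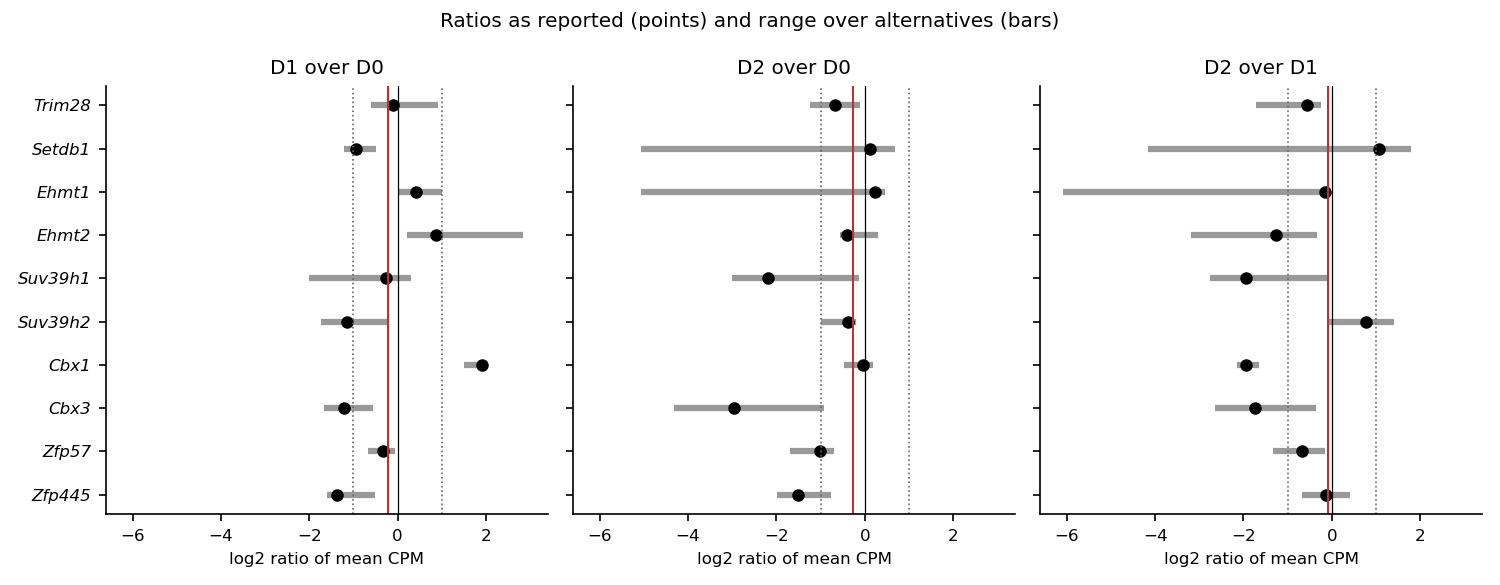
Log2 ratio of mean CPM (x axis) of each gene for D1 over D0, D2 over D0 and D2 over D1. Points are the values as reported, grey bars the range over the alternatives tried, dotted lines 2-fold, and red lines the median of all genes compared (-0.22, -0.25 and -0.08). Cbx1 in D1 and Cbx3 in both labels keep their direction, whereas the bars of Setdb1 and Ehmt1 in D2 over D0 cross 0.

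The number of the 10 genes with a read in a cell was compared at 200000 reads. D0 cells had a read on a median of 9 of the 10 (range 4 to 10), D1 cells on 9 (4 to 10) and D2 cells on 5 (2 to 8). All 10 were read in 20 D0 cells (22.2%), 16 D1 cells (32%) and 0 of 93 D2 cells, which allows a share of up to 3.23% (3 of 93). The same difference was seen over the whole table. Among 10512 genes that some label had in 50% or more of its cells, the median share of cells with a read at equal depth was 72.2%, 72% and 25.8% for D0, D1 and D2. The lower shares in D2 thus accompany fewer detected genes in general, and the part of this in each gene was not tested.

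The spread between cells had a like pattern. SD over mean was lowest for Cbx1 in each label, at 0.433 in D0, 0.559 in D1 and 0.819 in D2, and highest for Suv39h1 at 1.76, 1.64 and 5.51. Ranks are among the genes that met, in that label, the limit used above on the share of cells with a read. In D0 2.83% of these genes had a lower value than Cbx1. Suv39h1 was read in only 11.8% of D2 cells and did not meet this limit in D2. Its D2 value was above that of 99.9% of the ranked genes, but these were chosen for wider detection, so this rank is not read as a result. Setdb1 went from 0.568 in D0, where 9.81% of genes had a lower value, to 2.21 in D2, where 86.8% did. Trim28 and Zfp57 had 0.598 and 0.558 in D0 and 1.14 and 1.22 in D2, and were below the median of all such genes in D2 (1.34). In D1 Trim28 was at 1.10, just above the D1 median of 1.08, and Zfp57 was at 0.672. Over all genes with such a share of cells the medians were 1.05, 1.08 and 1.34 for D0, D1 and D2. They cover 8693, 9811 and 3799 genes in turn, so the medians are not of the same genes.

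Genes that varied with these genes between cells were named by the mean of the within-label Spearman correlations of thinned reads, over 90, 50 and 93 cells and the 3644 genes that 50% or more of the cells of every label had. Of the 10 genes, Trim28, Setdb1, Ehmt1, Cbx1, Cbx3 and Zfp57 met this limit. Trim28 was most like Pou5f1 (mean rho 0.49), the pluripotency factor OCT4, followed by Ccnd3 (0.48) and Eif3d (0.46). For Cbx1 it was Ncl (0.42), the nucleolar protein nucleolin, before the unnamed gene models Gm15500 and Gm8186 (both 0.36). For Cbx3 it was mt-Nd2 (0.39), then Ssb (0.36) and Gm7846 (0.32). Setdb1 was most like Etv5 (0.30), Trim28 (0.30) and Map4 (0.30), Ehmt1 like Yars (0.30) and H2-M6-ps (0.23), and Zfp57 like Hspa14 (0.28), Nucks1 (0.27) and Manba (0.27). These are descriptions across cells that share a library, and no p is given. Some were highest in D1, the label that stood apart, and weak in another. In D0, D1 and D2 in turn, rho was -0.01, 0.57 and 0.26 for Zfp57 with Manba, and 0.30, 0.46 and 0.09 for Zfp57 with Hspa14. It was 0.35, 0.58 and 0.02 for Cbx3 with Gm7846, 0.29, 0.54 and 0.07 for Setdb1 with Map4, and 0.27, 0.68 and 0.13 for Cbx1 with Gm8186. Over the 45 pairs of the 10 genes the mean rho lay between -0.21 (Trim28 and Cbx3) and 0.30 (Trim28 and Setdb1), with a median of 0.03. Within D1 alone the pairs lay between -0.52 (Trim28 and Cbx1) and 0.46 (Trim28 and Setdb1), wider than within D0 (-0.21 to 0.30) or D2 (-0.29 to 0.24). Trim28 and Cbx1 had 0.02 in D0. Trim28 in D0 had a rho of 0.39 with the number of genes detected and of -0.31 with total reads. In D1 these were 0.13 and 0.11 for Trim28, -0.36 and -0.23 for Cbx1, and 0.57 and 0.27 for Suv39h2. The part of detection and depth in the pairs was not tested.

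The other genes of the pathway were described from lists of partners, demethylases, NuRD subunits, further KRAB zinc finger genes and genes listed for imprint maintenance. Of 15 partners of the writers and readers, 1 was at least 2-fold higher and 1 lower in D1 over D0, with a median log2 ratio of -0.31, and 0 were higher and 8 lower in D2 over D0, with a median of -1.14 (7 lower with TMM factors). Over all genes 17.4% were higher and 26.7% lower in D1, and 10.9% higher and 29.3% lower in D2, with medians of -0.22 and -0.25, and all list counts below stand beside these shares. The members of the HUSH complex, which spreads H3K9 trimethylation, did not move together in D1. Mphosph8, which binds the mark, had a log2 ratio of 1.53 (59.83 ± 71.75 CPM in D0, 172.7 ± 118.1 in D1), whereas Fam208a, which encodes the scaffold TASOR, had -1.87 (201.6 ± 180.3 and 55.3 ± 54.13 CPM), and Pphln1 had -0.43. In D2 over D0 the log2 ratio was -0.95 for Mphosph8, -1.98 for Fam208a and 0.35 for Pphln1. Of the 15 partners, the lowest ratios in D2 were those of Setdb2 at -3.44 and Trim33 at -2.70. Trim33 went from 85.98 ± 137 CPM in D0 to 13.22 ± 91.49 in D2. Without the single D2 cell of most weight the ratio of Trim33 was -4.48. Atf7ip, the partner that stabilizes SETDB1 in the nucleus, had a log2 ratio of 0.38 in D2, with a read in 34.4% of D2 cells at equal depth against 93.3% in D0. Its mean, like that of Setdb1, was carried by a minority of D2 cells.

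Of 11 H3K9 demethylase genes, 9 could be compared for D1 and 8 for D2, each over D0. In D1 0 were higher and 6 were lower (3 with TMM factors), with a median of -1.45, where 26.7% of all genes were lower (20.3% with TMM factors). In D2 1 was higher and 3 were lower, with a median of -0.32, where 10.9% and 29.3% of all genes were. Kdm3b had ratios of -2.67 and -2.63 in D1 and D2, from 115.3 ± 74.32 CPM in D0 to 18.17 ± 20.15 and 18.68 ± 49.79. Kdm4b had -2.81 in D1, Kdm1a, which encodes LSD1, had -1.95 in D2. Kdm4a had a ratio of 1.00 in D2, which was 0.32 without 1 cell and did not pass 2-fold with summed reads, and it was read in 22.6% of D2 cells against 67.8% of D0 cells at equal depth. Its D2 mean thus exceeded that of D0 while fewer cells had a read.

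Of 10 NuRD subunit genes, which encode the deacetylase and remodelling complex that TRIM28 binds, 0 were higher and 4 lower in D1 (2 higher and 1 lower with TMM factors), and 0 were higher and 5 lower in D2 (1 and 3 with TMM factors), where 26.7% of all genes were lower in D1 and 29.3% in D2. The medians were -0.69 and -0.62. Hdac2 had -1.77 and Gatad2a -1.26 in D1, the latter not past 2-fold with summed reads, TMM or median-of-ratios factors, and Gatad2b had -2.50 and Mta1 -2.27 in D2, the latter -3.17 without 1 cell. None of the other KRAB zinc finger genes that could be compared (4 in D1 and 3 in D2 of 5) was past 2-fold over D0, although Zfp819 was at least 2-fold higher in D1 with summed reads, TMM or median-of-ratios factors (log2 0.85 as reported, and 0.22 without 1 cell). Their medians were -0.48 and -0.57. Dppa3, Dnmt1 and Uhrf1, listed together for imprint maintenance, were each at least 2-fold lower in D1 over D0. Whether each acts in maintenance in these cells was not tested. Dppa3 had a log2 ratio of -1.36 (-2.42 without 1 cell), and Dnmt1 had -1.25, not past 2-fold with TMM factors. In D2 1 of these 3 genes was lower. Uhrf1, which brings DNMT1 to replicated DNA and binds methylated H3K9, had -1.45 in D1 and -1.74 in D2, from 912.6 ± 392.5 CPM in D0 to 333 ± 212.5 and 273.1 ± 516.7.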

How the data were processed

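Single-cell RNA-seq of 288 wells was used. The bisulfite data were not analysed here. The deposited values are raw counts, whole numbers of reads on each gene in every well, which the authors had not normalized or filtered by cell. HISAT2 and GRCm38 are named in the submitters' processing notes. The annotation and the counting tool are not given in the sources used here. Although the labels refer to a table after filtering and normalization, the totals differ between wells and all values are whole.

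Counts of passing cells were scaled to CPM by the total of each cell, and ratios are of means over cells without a pseudocount. With 1 culture per label assumed, there was no test, and at least 2-fold was used as a rule of size. Cells were thinned to 200000 reads for shares (exact 95% Clopper-Pearson intervals) and rank correlations. Depth differed between labels, and the interval on a share is limited by the 50 to 93 cells. No doublet caller was run, because cells were sorted singly, and no wells held identical counts. Exon lengths came from the GENCODE M21 annotation of GRCm38, and the authors may have counted on another.

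The 10 genes and all lists were chosen with earlier results of these data known. From each further list, up to 2 of the largest ratios in each direction past 2-fold over D0 were named by rule. Pphln1, Atf7ip, Cbx5, Dnmt1 and Zfp819 were named after their values were seen, for their place in the pathway. One gene that the rule on likeness names is not reported here. Alternatives were other filters on cells, summed reads, medians, log-normalized values, pseudocounts of 1 and 10 CPM, TMM and median-of-ratios factors on summed reads, totals without the 50 most abundant genes, thinning, parts of the plate, other detection limits and leaving out each cell in turn. Python 3.11.15, numpy 2.4.6, pandas 2.3.3, scipy 1.17.1, R 4.3.3 and edgeR 4.0.16 (scaling factors only) were used. The ratios were tested on simulated data. For the shares only the thinning and the interval were checked, and no share was simulated.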

Additional observations from a re-analysis of the deposited data

How the results depend on the processing

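No paired analysis was possible because the labels name no cultures and well numbers pair no cells. Over the 30 log2 ratios of the 10 genes, 21 kept their direction under every alternative that gave a value. Of 472 alternative values of these ratios, 357 moved by more than counting error and 28 changed sign. Of 93 alternative counts of genes past 2-fold 78 stayed within 1.5 times, as did 108 of 120 shares of cells within their intervals.

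The count at least 2-fold higher in D1 over D0 (1) was 2 with no filter on cells, with summed reads, and with TMM or median-of-ratios factors, and 3 with medians. The count lower in D1 over D0 (3) was 0 with log-normalized values, 2 with summed reads, TMM or median-of-ratios factors, a pseudocount of 10 CPM or plate columns 1 to 6, and 4 in columns 7 to 12. That lower in D2 over D0 (4) was 0 with log-normalized values and 2 with a pseudocount of 10 CPM. That higher in D2 over D1 (1) was 0 with medians, log-normalized values, a pseudocount of 10 CPM or plate columns 1 to 6, and between 0 and 1 leaving out each cell in turn. That lower in D2 over D1 (4) was 1 with log-normalized values and 2 with a pseudocount of 10 CPM. A pseudocount and the log-normalized scale shrink ratios of low genes by construction.

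Ratios that changed sign were these. In D1 over D0, Trim28 was 0.92 with no filter on cells, 0.13 with summed reads, 0.34 with TMM, 0.23 with median-of-ratios factors and 0.25 in plate columns 7 to 12, and Suv39h1 was 0.11, 0.0088, 0.099, 0.30 and 0.19 with TMM, median-of-ratios factors, thinning, columns 7 to 12 and inner wells. In D2 over D0, Setdb1 was -5.07 with medians, -0.63 with log-normalized values, -0.68 in columns 1 to 6 and between -0.059 and 0.14 leaving out each cell. Ehmt1 was -0.026 with summed reads, -5.07 with medians and -0.067 with log-normalized values. Ehmt2 was 0.033, 0.31 and 0.26 with summed reads, TMM and median-of-ratios factors, and Cbx1 was 0.18, 0.13 and 0.073 with TMM, median-of-ratios factors and columns 1 to 6. In D2 over D1, Setdb1 was -4.16 with medians and -0.061 with log-normalized values, Suv39h2 was -0.066 with summed reads, and Zfp445 was 0.42 in columns 7 to 12 and 0.17 in inner wells. Except for the shrinkage named above, the cause was not tested. The D2 medians of Ehmt2, Suv39h1, Suv39h2 and Zfp445 are 0, so no ratio of medians exists for them. The lack of replicate cultures named in the labels limits every comparison, and 50 D1 cells limit its shares.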
